A study of Mus musculus with 8 samples.

Results

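Transcripts of the acute-phase response and of the liver were followed in KPC pancreatic tumors: Saa1, Saa2 and Saa3, Hp, Lbp, Lcn2, Orm1, Alb, Fgb and Tat, which are 10 of the 29968 genes in the deposited count table. They were picked by name, with earlier results of these data known, among them the genotype difference of Saa1, Saa2 and Tat and the high Alb and Fgb of 1 tumor, so the genotype values of these genes are a description here and carry no test. The question was which of the acute-phase genes were abundant in every tumor and which rose and fell with Alb and Fgb, the liver transcripts. RNA was sequenced from tumors of 4 WT mice (C57BL/6J) and 4 C3-/- mice, which lack the complement component C3. All 8 hosts were males aged 12 weeks, and all received 250000 KPC cells (FC1245) in 50 µL of PBS in the tail of the pancreas. These cells are 1 line, from a mouse whose tumors arise through Pdx-1-Cre, and they keep their own C3 gene, so both groups of tumors hold C3-competent cancer cells in a host that does or does not have C3.

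In the acute-phase response, the cytokines IL-6, IL-1 and TNF act through STAT3, C/EBP and NF-kB factors to raise the secretion of a set of plasma proteins, above all by hepatocytes. Albumin (Alb), the fibrinogen beta chain (Fgb) and tyrosine aminotransferase (Tat) are made almost only in the liver. Serum amyloid A1 and A2 (Saa1, Saa2) are the hepatic forms of a lipoprotein-bound family of acute-phase proteins, whereas Saa3 is known for expression outside the liver, in macrophages, fat and epithelium. Haptoglobin (Hp), which binds free hemoglobin, lipopolysaccharide-binding protein (Lbp) and lipocalin 2 (Lcn2), which traps bacterial iron carriers, are also made by other cells such as adipocytes, epithelium and neutrophils. Orm1 is alpha-1-acid glycoprotein, a plasma carrier of drugs and lipids.

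Saa1 and Saa2 stand side by side on chromosome 7 (mm39, 46389921 to 46392404 and 46401214 to 46403737) on opposite strands, and Saa3 lies in the same cluster at 46361422 to 46365124. Their coding sequences are each 366 bases long. Saa1 and Saa2 differ at 18 of these bases and are 95.1% identical, against 74.1% for Saa1 and Saa3. None of the 608 stretches of 150 bases, the read length, in the Saa1-201 transcript occurs whole in Saa2-201. This covers exact matches in these transcripts only, and whether reads of the first 2 genes were split between them was not tested. The 60 coding bases in which Saa1 and Saa2 differ most (bases 90 to 149, GENCODE vM39) are shown with the bases that differ between the pair in capitals, and for Saa3 with the bases that differ from Saa1 in capitals. The stretch crosses an intron in each gene.
Saa1: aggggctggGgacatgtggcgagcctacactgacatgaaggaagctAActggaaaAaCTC
Saa2: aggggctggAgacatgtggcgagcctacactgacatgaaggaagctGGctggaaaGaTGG
Saa3: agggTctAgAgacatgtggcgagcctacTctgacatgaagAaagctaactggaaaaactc

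The 200 bases before the transcription start are printed for the 3 Saa genes and for Alb and Fgb, because Saa1 and Saa2 had nearly parallel counts over the tumors and Alb and Fgb did too. RefSeq promoters (GRCm38.p6) were held for 7 of the 10 genes. Those of Tat and Lcn2 are not printed and held 0 matches to the motifs below, although the counts of Tat also ran nearly parallel to those of Saa1 and Saa2. Capitals mark, on either strand, HNF1 half-sites (GTTAAT, in 5.06% of the 32851 promoter windows of this length), C/EBP sites (TTGCNNAA, in 7.47%), STAT sites (TTCNNNGAA, in 5.49%) and NF-kB sites (GGNNTTTCC, in 4.05%).
Saa1 (chr7:46742981-46743180, minus strand): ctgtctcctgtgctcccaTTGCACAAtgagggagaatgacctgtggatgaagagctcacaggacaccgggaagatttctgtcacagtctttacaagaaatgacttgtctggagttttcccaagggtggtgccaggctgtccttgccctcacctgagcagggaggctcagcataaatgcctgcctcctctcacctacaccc
Saa2 (chr7:46751633-46751832, plus strand): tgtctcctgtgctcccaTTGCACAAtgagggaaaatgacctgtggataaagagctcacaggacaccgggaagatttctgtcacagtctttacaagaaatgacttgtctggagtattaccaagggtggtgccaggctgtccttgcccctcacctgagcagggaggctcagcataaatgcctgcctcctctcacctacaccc
Saa3 (chr7:46715677-46715876, minus strand): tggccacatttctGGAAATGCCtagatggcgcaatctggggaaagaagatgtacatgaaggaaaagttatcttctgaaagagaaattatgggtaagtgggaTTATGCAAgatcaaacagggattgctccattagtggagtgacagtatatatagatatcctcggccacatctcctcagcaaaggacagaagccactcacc
Alb (chr5:90460670-90460869, plus strand): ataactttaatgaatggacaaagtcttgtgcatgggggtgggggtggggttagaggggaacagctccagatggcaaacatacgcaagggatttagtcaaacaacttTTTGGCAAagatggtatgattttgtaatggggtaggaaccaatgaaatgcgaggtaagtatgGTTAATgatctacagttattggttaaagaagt
Fgb (chr3:83049864-83050063, minus strand): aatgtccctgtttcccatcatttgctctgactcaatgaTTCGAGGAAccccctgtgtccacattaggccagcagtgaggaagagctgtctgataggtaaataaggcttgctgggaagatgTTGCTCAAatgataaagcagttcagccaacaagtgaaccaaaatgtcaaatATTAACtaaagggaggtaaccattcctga

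The Saa1 and Saa2 windows are 97% identical over 201 aligned positions and hold the same C/EBP match, 182 and 183 bases before the start. Saa3 aligns to Saa1 at 47.2% and has its C/EBP match 99 bases before the start. The HNF1 half-site is in the windows of both Alb and Fgb, 32 and 29 bases before the start, and in none of the 3 Saa windows. Fgb alone of the 5 had a STAT match and Saa3 alone an NF-kB match, 187 bases before its start. A match is a run of letters and was not tested as a binding site.

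Libraries held 13266029 to 23354212 counts. C3 itself had 2998 to 7623 counts in WT tumors and 1591 to 2387 in C3-/- tumors, groups that did not overlap. Markers of epithelium were abundant in every tumor, with summed levels of 6597 to 10970 counts per 1000000 library counts (CPM) in WT and 5824 to 9685 CPM in C3-/- tumors for 7 keratin, adhesion and mucin genes, none of them at 0. Markers of other tissues differed between tumors. WT replicate 4 was the tumor in which all 30 genes of a hepatocyte list had at least 1 count, whereas 3 to 15 of them were at 0 in each of the other tumors, and WT replicate 2 and C3-/- replicate 1 had the most adipocyte transcripts, at 637 and 223 CPM summed over 6 genes against 50.4 to 109 CPM in the other 6 tumors. C3-/- replicate 1 also had the most transcripts of pancreatic acinar cells, at 1429 CPM summed over 7 genes, against 106 to 360 CPM in the WT tumors and 3.28 to 10.9 CPM in the other C3-/- tumors. The r of the mean log2 CPM of these 7 genes was 0.56 with Saa1 and 0.60 with Saa3, and the part of acinar tissue in those levels was not tested. In bulk tumor RNA, fewer cells of a type and less RNA per cell cannot be told apart.

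Levels divided the 10 transcripts into an abundant and a scarce set. Per kilobase of annotated exon and scaled to library size (RPKM), the mean level over the 8 tumors was 82.9 for Hp, 33.2 for Saa3, 20.3 for Lcn2 and 13.5 for Lbp, which placed these at the 98.2th, 94.8th, 90.6th and 85.7th percentile of all genes in the table. Next came Alb at 2.62 RPKM and Orm1 at 1.11 RPKM, followed by Saa1 at 0.574, Fgb at 0.566, Saa2 at 0.457 and Tat at 0.151 RPKM. The lengths used for Saa1 and Saa2, 2478 and 2518 bases, cover nearly the whole gene, introns included, so their place may be understated. By mean CPM over the 8 tumors, Saa1 was at 1.42 and Orm1 at 0.861. The spread over tumors was larger than the step between most neighbors in the order by RPKM. Hp ran from 14.2 to 395 RPKM and Saa3 from 6.46 to 77.7 RPKM, so the order of Hp, Saa3, Lcn2 and Lbp differed between tumors, and every one of the 6 scarce transcripts fell below 1 RPKM in at least 1 tumor. The lowest level of the abundant set was that of Saa3 in C3-/- replicate 3, at 6.46 RPKM, and Alb in WT replicate 4, at 15.3 RPKM, was the one case of a scarce transcript above it.

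**Figure D1:**
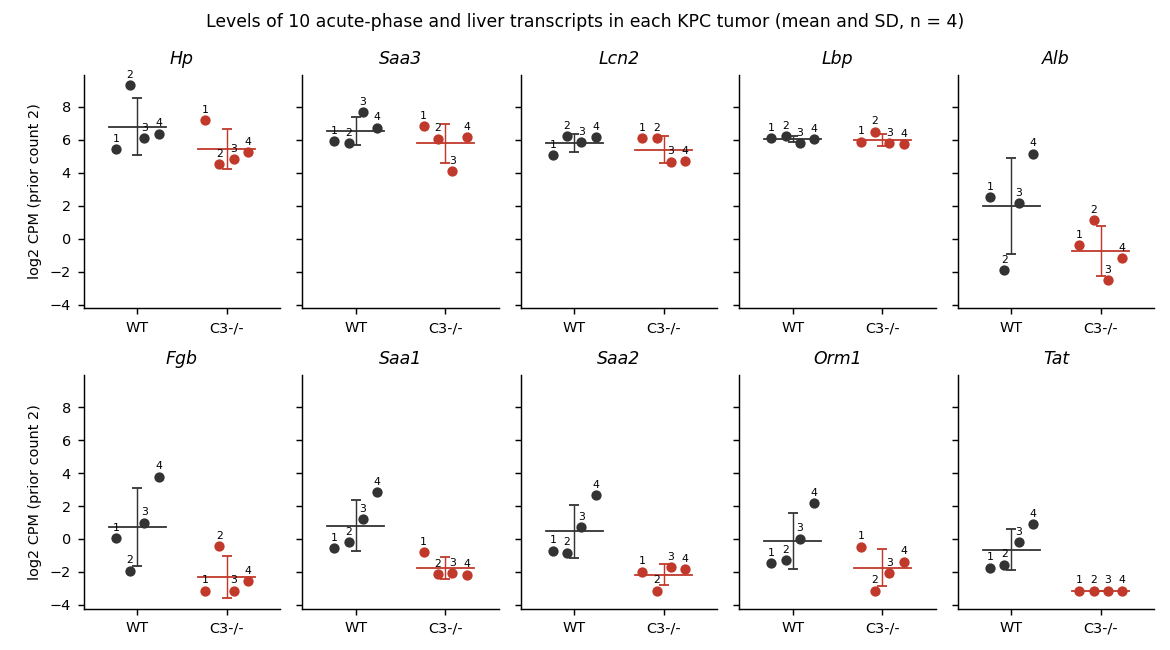
Each panel plots the level of 1 transcript as log2 CPM (prior count of 2) in the 4 WT tumors (black) and the 4 C3-/- tumors (red), with the replicate number above each point and the mean and SD of each group as lines. Hp, Saa3, Lcn2 and Lbp lie above 4 in every tumor, while the 6 others have their highest point in WT replicate 4.

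Among the liver transcripts, Alb had 92, 2, 58 and 840 counts in the WT tumors, in the order of replicates 1 to 4, against 14, 37, 1 and 6 counts in the C3-/- tumors in the same order, which holds for every series of 4 values given here. WT replicate 4 was far above all others and WT replicate 2 was below 3 of the 4 C3-/- tumors, so the genotypes overlapped. Fgb had 15, 2, 25 and 320 counts in the WT tumors and 0, 11, 0 and 1 counts in the C3-/- tumors, and as for Alb the WT replicates 1, 3 and 4 and then C3-/- replicate 2 were on top while WT replicate 2 was low. Over the 8 tumors the log2 CPM of Alb and Fgb had a Pearson r of 0.94 and a Spearman rho of 0.85. Tat, an enzyme of tyrosine breakdown that glucocorticoids induce in liver, had 3, 3, 10 and 41 counts in WT tumors and 0 in each of the 4 C3-/- tumors, where a count of 0 allows up to 3 counts per library.

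The other scarce transcripts also peaked in WT replicate 4. Saa1 had 9, 10, 29 and 166 counts in the WT tumors and 10, 2, 2 and 2 counts in the C3-/- tumors. Its levels scaled to library size, 0.560 to 7.06 CPM in WT and 0.109 to 0.468 CPM in C3-/- tumors, did not overlap between the groups, although the count of 10 occurred in both. Saa2 had 8, 6, 20 and 147 counts in WT tumors and 3, 0, 3 and 3 in C3-/- tumors, and likewise did not overlap. Orm1 had 4, 4, 12 and 104 counts in WT tumors and 13, 0, 2 and 5 counts in C3-/- tumors, and here C3-/- replicate 1 stood above 2 WT tumors. WT replicate 3 was second to WT replicate 4 in Saa1, Saa2, Tat, Orm1 and Fgb.

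Whether a transcript went with Alb and Fgb was described by the Pearson r of its log2 CPM with the mean log2 CPM of those 2 genes over the 8 tumors, where an r of at least 0.8 was counted as following. Tat passed, at r = 0.831, and Saa1 stood just below, at r = 0.797. Among other genes past the low-count filter, at which Tat, Saa1, Saa2 and Orm1 failed, 83 of 16608 (0.5%) had an r of at least 0.8, and of the genes that failed the filter but reached 10 counts in a tumor, as these 4 did, 47 of 3039 (1.55%) had one. Saa2 had an r of 0.76 and Orm1 of 0.65. Saa3 had 0.56, Lcn2 0.39, Lbp 0.23 and Hp -0.12. Rank correlations were lower for the scarce set (rho of 0.65 for Tat, 0.60 for Saa1, 0.55 for Saa2 and 0.52 for Orm1), and without WT replicate 4 the r was 0.63 for Tat, 0.53 for Saa1, 0.43 for Saa2 and 0.14 for Orm1, so that none of the 8 genes then followed. Of the 16608 other genes past the filter, 193 had an r of at least 0.8 in that case. Leaving out the 2 tumors farthest from the median of Alb and Fgb (WT replicates 3 and 4) took r to 0.35 for Tat, 0.18 for Saa1, -0.01 for Saa2 and -0.32 for Orm1. Leaving out C3-/- replicate 2 moved it the other way, to 0.89 for Saa1, 0.93 for Saa2, 0.84 for Orm1 and 0.90 for Tat, so that 4 of the 8 then followed. The relation of the scarce transcripts to Alb and Fgb thus depended on these tumors.

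**Figure D2:**
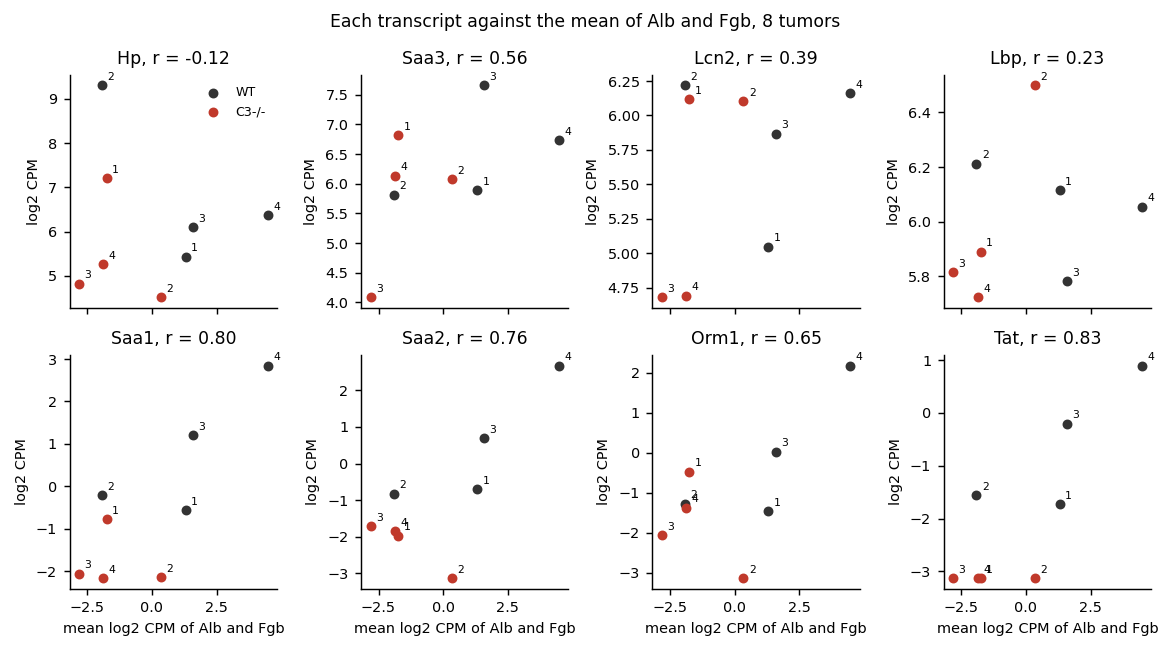
The log2 CPM of each of 8 transcripts is plotted against the mean log2 CPM of Alb and Fgb in the same tumor, with WT tumors in black, C3-/- tumors in red and the replicate number beside each point. In the lower row WT replicate 4 is the point farthest to the upper right, and C3-/- replicate 2 lies low in Saa1, Saa2, Orm1 and Tat despite its Alb and Fgb.

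Saa1 and Saa2 had a higher r with each other, with Tat and with Orm1 than with Alb or Fgb, a difference that was not tested. The r between Saa1 and Saa2 was 0.95, and each had an r of 0.96 with Tat and of 0.91 with Orm1, compared with 0.75 and 0.70 with Alb and 0.82 and 0.81 with Fgb. Without WT replicate 4, a choice made after the values were seen here and wherever a correlation with a gene list is given without it, the r between Saa1 and Saa2 was 0.88, each had 0.92 with Tat, 0.78 and 0.76 with Orm1, 0.46 and 0.33 with Alb and 0.58 and 0.52 with Fgb. Tat went the other way for Fgb, at 0.89 against 0.82 with Orm1, or 0.74 against 0.59 without WT replicate 4. The sets came apart in 2 tumors. In C3-/- replicate 2, which had the most Alb of its group with 37 counts and 11 counts of Fgb, there were 2 counts of Saa1 and none of Saa2, Orm1 and Tat. In WT replicate 2, which had 2 counts each of Alb and Fgb, Saa1 had 10 counts, Saa2 6, Orm1 4 and Tat 3. Apolipoprotein and other liver genes gave a broader reference: with the mean log2 CPM of 30 hepatocyte genes that left out all 10 transcripts, r was 0.95 for Saa1, 0.92 for Saa2, 0.91 for Orm1 and 0.90 for Tat, against 0.82 for Alb and 0.87 for Fgb, and 0.24 to 0.48 for Hp, Saa3 and Lcn2 with 0.03 for Lbp. Without WT replicate 4 the r with these 30 genes was 0.97 for Saa1, 0.81 for Saa2, 0.74 for Orm1 and 0.87 for Tat, against 0.60 for Alb and 0.63 for Fgb. Of the abundant set, Saa3 then had 0.70, Lcn2 0.49, Hp 0.46 and Lbp -0.08, so that Saa3 stood above Alb and Fgb and close to Orm1, and the list did not set the scarce from the abundant transcripts. These correlations share the same 8 libraries and the low counts of both sides. Markers of mesothelium, the lining of the abdominal organs, moved with several transcripts of both sets, with an r of their mean log2 CPM of 0.84 with Saa1 and Tat, 0.79 with Saa2 and 0.75 with Orm1, or 0.74 with Saa1, 0.72 with Tat, 0.64 with Saa2 and 0.56 with Orm1 without WT replicate 4. Hp had 0.69 and Lcn2 0.59 over all 8 tumors, and Hp, at 0.82, was then above each scarce transcript, with Lcn2 at 0.53. The summed level of the 6 mesothelial genes was 486 to 572 CPM in WT and 366 to 549 CPM in C3-/- tumors, 1 of them (Krt5) was at 0 in every tumor but WT replicate 4, and the sum was nearly all Msln, with 6400 to 11412 counts and a log2 fold change of -0.08. The scarcer Upk3b had 39, 62, 53 and 114 counts in WT and 50, 23, 14 and 25 in C3-/- tumors. Its log2 fold change was -1.43, with -1.30 for Lrrn4 and -0.91 for Upk1b. All 5 mesothelial genes tested were lower in C3-/- tumors, with a median log2 fold change of -0.91, 0 were called by edgeR and 3 had an unadjusted p below 0.05. Of all 16610 genes tested, 8306 were lower, 344 of them with an unadjusted p below 0.05. The part of that tissue in the levels of these transcripts was not tested.

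Counts set against those of Alb differed in the same way between the abundant and the scarce transcripts. Over the 5 tumors with at least 10 Alb counts, there were 297 to 17250 counts of Saa3 per 100 Alb counts, 232 to 22490 of Hp, 199.9 to 10580 of Lcn2 and 186 to 9036 of Lbp. Each of these ratios was lowest in WT replicate 4, the tumor with the most Alb. That follows from the range of Alb itself, 14 to 840 counts in these tumors, and is no separate result. In these tumors, which were kept for their Alb, the scarce transcripts were below Alb, at 5.41 to 71.4 counts of Saa1, 0 to 34.5 of Saa2, 0 to 92.9 of Orm1, 0 to 43.1 of Fgb and 0 to 17.2 of Tat per 100 Alb counts. The tumors left out went the other way in part. In WT replicate 2, with 2 Alb counts, there were 500 counts of Saa1, 300 of Saa2, 200 of Orm1 and 150 of Tat per 100 Alb counts, and in C3-/- replicate 3, with 1 Alb count, 200 of Saa1, 300 of Saa2 and 200 of Orm1. No transcript kept a fixed ratio to Alb.

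**Figure D3:**
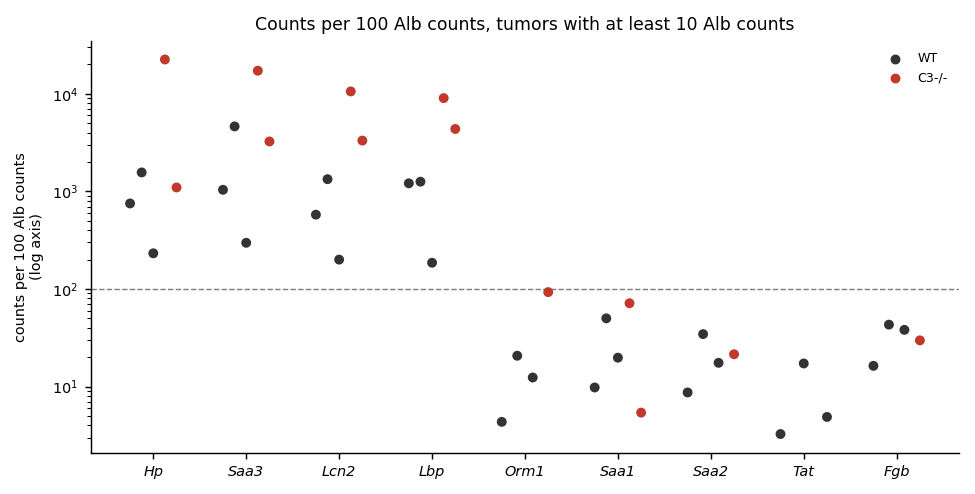
For each transcript the points give, on a log axis, its counts per 100 Alb counts in the 5 tumors with at least 10 Alb counts (WT black, C3-/- red), with the dashed line at 100 and ratios of 0 left out. Hp, Saa3, Lcn2 and Lbp lie above the line in all 5 tumors, whereas Orm1, Saa1, Saa2, Tat and Fgb lie below it.

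Saa3 was the most abundant serum amyloid A transcript in every tumor. It had 955, 745, 2688 and 2497 counts in WT tumors and 2415, 1202, 267 and 1286 counts in C3-/- tumors, 15.0 to 643 times the Saa1 count of the same tumor. WT replicate 3, not replicate 4 with its Alb, had the highest level at 202.5 CPM, and C3-/- replicate 3 had the lowest at 16.8 CPM. The group means of 106 ± 68.2 CPM in WT and 66.9 ± 39.4 CPM in C3-/- tumors (SD, n = 4 each) overlapped. Saa3 had a rho of 0.93 and an r of 0.57 with the neutrophil list and a rho of 0.55 and an r of 0.43 with the macrophage list. By r the acinar (0.60), mesothelial (0.53) and epithelial (0.51) lists were about as near, the differences were not tested, and the part of those cells in its level was not tested. The 12 neutrophil genes summed to 65.5 to 295 CPM in WT and 99.6 to 259 CPM in C3-/- tumors, with 3 of them at 0 in WT replicate 2, 1 in C3-/- replicate 3 and none elsewhere. In the tumor with the highest sum of each group most of these counts were Ltf, at 2748 of 3921 in WT replicate 3 and 3907 of 4621 in C3-/- replicate 2. The 7 macrophage genes summed to 1044 to 1324 CPM in WT and 879 to 1664 CPM in C3-/- tumors, none at 0. Of the tested genes, those most like Saa3 over the 8 tumors were Psme2, a proteasome activator subunit that interferon induces (r = 0.98), Cmc4, ENSMUSG00000120214, Cd5l, a secreted macrophage protein (r = 0.96), and Fbxo36.

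Lbp was the steadiest of the 10. Its counts were 1113, 983, 729 and 1560 in WT tumors and 1265, 1614, 892 and 964 in C3-/- tumors, or 66.2 ± 8.13 and 64.6 ± 17.4 CPM (SD, n = 4 each). The highest and lowest tumors, at 90.4 and 52.7 CPM, were both C3-/-. Lbp hands lipopolysaccharide to CD14, whose gene had 1700 to 3649 counts in every tumor. Its r with the hepatocyte list was 0.03, and the genes most like it were Lrrc31 (r = 0.95), Pskh1, Cdip1, Rtkn and Acox2.

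Lcn2 had 531, 988, 774 and 1679 counts in WT tumors and 1481, 1227, 405 and 471 counts in C3-/- tumors. In both groups some tumors lay near 70 CPM (WT replicates 2 and 4 and C3-/- replicates 1 and 2, at 68.7 to 74.5 CPM), and the lowest 3 were C3-/- replicates 3 and 4 and WT replicate 1, at 25.5 to 33.0 CPM. The means were 59.3 ± 18.9 CPM in WT and 47.3 ± 25 CPM in C3-/- tumors (SD, n = 4 each). Lcn2 is known as a neutrophil granule protein, and its r with the mean log2 CPM of 12 neutrophil genes was 0.21. The part of neutrophils in its level was not tested. The granule gene Ltf ranged from 470 to 3907 counts, the calprotectin genes S100a8 and S100a9 from 74 to 764 and from 73 to 944 counts, and Csf3r, the G-CSF receptor, from 133 to 389 counts. Ngp, another granule gene, had 5, 4, 27 and 31 counts in WT and 531, 42, 35 and 63 in C3-/- tumors, a log2 fold change of 3.04. None of the 8 neutrophil genes tested was called between genotypes. Ngp and Csf3r, both higher in C3-/- tumors, had an unadjusted p below 0.05 in edgeR. In that direction 504 of all 16610 genes tested had such a p. Nearest to Lcn2 in pattern were C730034F03Rik (r = 0.95), Cyth1, Gm15545, Gstm7 and Brd3os, and among those nearest to Orm1 were Oip5 (r = 0.95), Clpx, Tnfrsf13b and Eif2s3y.

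Hp had the widest range of the abundant set. Its counts were 692, 8422, 907 and 1949 in WT tumors and 3149, 406, 447 and 703 in C3-/- tumors, so that WT replicate 2, at 635 CPM, stood far above the next highest tumor, C3-/- replicate 1, at 147 CPM. These are the 2 tumors with the most adipocyte RNA. Adiponectin (Adipoq), a hormone of fat cells, had 595 and 194 counts in them and 3 to 70 in the other 6 tumors, and Plin1, which coats their lipid droplets, had 371 and 52 counts against 2 to 14. Over the 8 tumors Hp had an r of 0.95 with the mean log2 CPM of the 6 adipocyte genes (rho = 0.79), or 0.56 without these 2 tumors, and 3 of the 5 genes most like Hp were the fat cell products Fabp4 (r = 0.97), Retn (r = 0.97) and Cfd (r = 0.94), beside Lrg1, another acute-phase gene, and Numbl. Without both tumors, a choice made after the values were seen, the r with Fabp4 was 0.89 and with Cfd 0.87, and with Adipoq it was -0.13. In the other 6 tumors Hp was still at 22.7 to 82.9 CPM. The part of fat cells in these Hp levels was not tested.

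**Figure D4:**
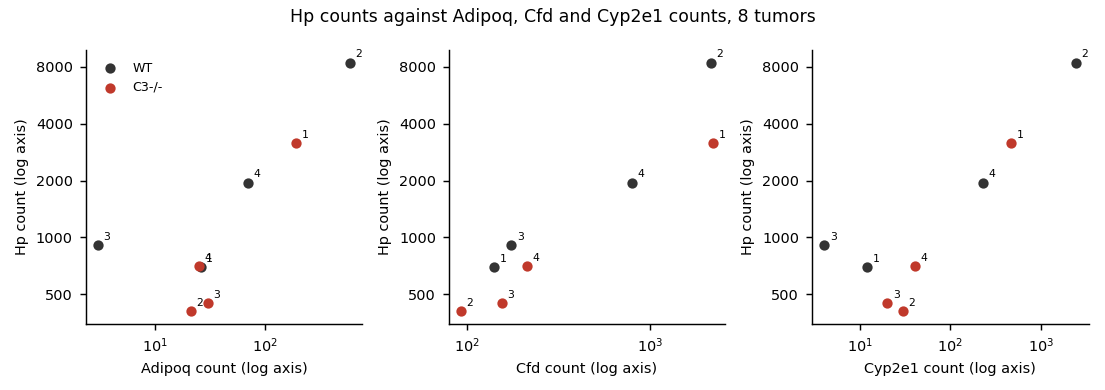
Hp counts are plotted against the counts of Adipoq, Cfd and Cyp2e1 in the same tumor, on log axes, with WT tumors in black, C3-/- tumors in red and the replicate number beside each point. WT replicate 2, with 8422 Hp counts, and C3-/- replicate 1, with 3149, lie at the upper right of all 3 panels.

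Not every gene on a liver list tracked Alb. The summed level of the hepatocyte list was 68.5 to 250.5 CPM in WT and 49.8 to 87.1 CPM in C3-/- tumors, and the highest sum came from Cyp2e1, a cytochrome P450 of liver and fat. It had 2472 of the 3324 counts of the hepatocyte list in WT replicate 2, the tumor with 2 Alb counts, and 228 counts in WT replicate 4. Of the 30 hepatocyte genes, 13 had an r of at least 0.8 with Alb and Fgb and 22 had their highest level in WT replicate 4, but most of the 13 failed the filter. Of the 12 hepatocyte genes that passed the filter, 1 (Ambp) had such an r and 5 were highest in WT replicate 4, compared with 83 and 1605 of the 16608 other genes that passed. Without WT replicate 4, 2 of the 30 had an r of at least 0.8, compared with 193 of the 16608 other genes that passed. Fibrinogen alpha and gamma (Fga, Fgg) were at 222 and 195 counts in WT replicate 4 and at 0 to 29 and 0 to 12 in the other tumors, and Serpina1b, an antitrypsin gene, was at 94 against 0 to 11. A few genes on the list were present in all 8 tumors over a narrow range. Ttr, the thyroxine carrier, had 160 to 363 counts, Ambp, the bikunin precursor, had 111 to 275 with an r of 0.815, and Itih2, a heavy chain that is linked to bikunin, had 254 to 462.

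Other acute-phase genes fell on both sides as well. Of the 22 in the table, 5 had an r of at least 0.8 with Alb and Fgb, of which 1 passed the filter. Without WT replicate 4, 0 had one, compared with 193 of the 16608 other genes that passed. In all, 11 had their highest level in WT replicate 4, and of the 13 that passed the filter 4 did, compared with 1605 of 16608. The 2 fibrinogen genes Fga and Fgg are on both lists and are 2 of the 5. Serum amyloid P (Apcs), at 46 counts in WT replicate 4 and 0 to 7 elsewhere, hemopexin (Hpx), the heme carrier, at 364 against 13 to 64, and Saa4, at 5 against 0, were of the scarce kind. The 3 with the highest mean level were Mt1, a metal-binding metallothionein (282 RPKM), Serpina3n, a protease inhibitor (71.1 RPKM), and Cp, the copper carrier ceruloplasmin (55.4 RPKM), and each had at least 573 counts in every tumor.

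The comparison of genotypes asked whether loss of C3 from the host altered the tumor transcriptome. Over all 16610 genes tested, edgeR's quasi-likelihood test with Benjamini-Hochberg adjustment called 0 (0%), limma-voom called 0, and 848 had an unadjusted p below 0.05. Of the 10 transcripts, Saa3, Hp, Lbp, Lcn2, Alb and Fgb passed the filter on low counts and the other 4 did not. None of the 6 was called, and the unadjusted p was below 0.05 for 2 of them, Alb and Fgb. Without WT replicate 4 it was 0.071 for Alb and 0.059 for Fgb by edgeR's quasi-likelihood test. DESeq2 called 16 of 20024 genes (0.0799%), of which 9 (0.0449%) were lower in C3-/- tumors, and 3 of these were Saa1, Saa2 and Tat. Since these 3 were chosen with that result known, nothing is read from the count. It was 0 without WT replicate 3 or 4 and without C3-/- replicate 3 or 4, and 2 without C3-/- replicate 1, in which Saa1 and Saa2 were called. Levels in the 2 groups did not overlap, with all C3-/- tumors lower, for these same 3 genes, compared with 241 of the 16610 genes that passed the filter (1.45%), which these 3 did not, and with 42 of the 3039 that failed it but reached 10 counts in a tumor (1.38%). For Tat this rests on counts near the limit. With 3 counts, which a count of 0 allows, C3-/- replicate 3 would be at 0.189 CPM, above the 0.187 CPM of WT replicate 1.

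In size, Saa1 was 2.64 ± 3.04 CPM in WT and 0.204 ± 0.176 CPM in C3-/- tumors (SD, n = 4 each), which corresponds to -3.64 on the log2 scale of the fit (SE 0.80). Saa2, with 181 counts in all WT and 9 in all C3-/- tumors, was 22.3-fold higher in WT tumors per summed library size (exact Clopper-Pearson 95% interval of 11.5 to 49.6, for counting error only), or 6.5-fold (3.06 to 15.4) when WT replicate 4 was left out. With each C3-/- library set to a floor of 3 counts, Tat was at least 4.40-fold higher, and at least 2.35-fold without that tumor. Alb and Fgb had log2 fold changes of -3.88 (SE 1.25) and -4.62 (SE 1.41), and Orm1 had -2.52 (SE 0.93). All of these genes had WT replicate 4 as the highest tumor. Without it the log2 fold changes were -2.12 for Alb, -2.52 for Fgb, -2.42 for Saa1 and -0.87 for Orm1. Without C3-/- replicate 2 they were -4.96 for Alb, -7.39 for Fgb, -3.42 for Saa1 and -2.10 for Orm1, and without C3-/- replicate 1 -4.47 for Saa1 and -3.44 for Orm1. In the former case the group had 0, 0 and 1 counts of Fgb left, so that value is no bound.

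The abundant transcripts had smaller fold changes between genotypes. The log2 fold changes were -0.66 (SE 0.54) for Saa3, -0.32 (SE 0.38) for Lcn2 and -0.03 (SE 0.18) for Lbp, each smaller than or close to its error. Hp was 207 ± 285 CPM in WT and 59.2 ± 59.1 CPM in C3-/- tumors (SD, n = 4 each). The fitted difference of -1.80 on the log2 scale (SE 0.90) became -0.13 without WT replicate 2 and -2.80 without C3-/- replicate 1. That value therefore depended on the 2 tumors with the most adipocyte RNA.

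**Figure D5:**
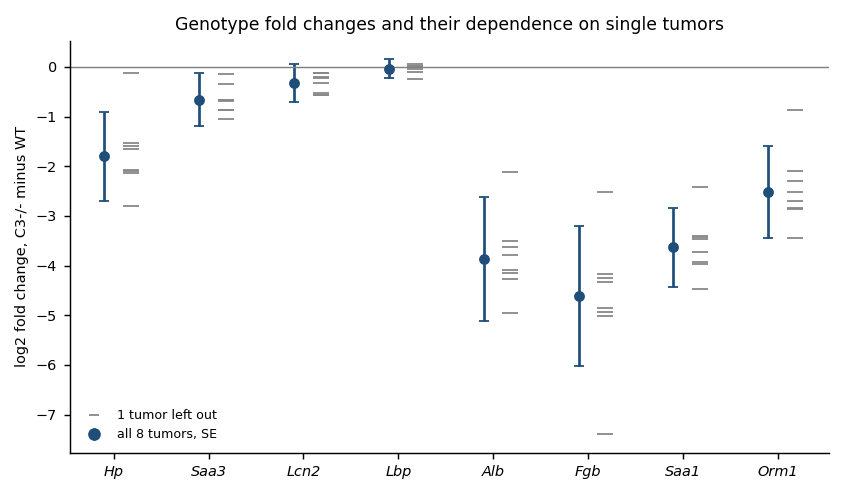
Circles give the log2 fold change (C3-/- minus WT) of 8 transcripts with its SE from the fit of all 8 tumors, and grey dashes give the 8 values from 7 tumors. The dash nearest 0 for Hp leaves out WT replicate 2, and the dashes nearest 0 for Alb, Fgb, Saa1 and Orm1 leave out WT replicate 4.

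Genes that induce or carry the response were counted as a list. Of 23 inducers, among them IL-6 family cytokines, their receptors and the transcription factors they use, 21 were tested and 0 were called by edgeR (0% of all genes), with 13 higher and 8 lower in C3-/- tumors and a median log2 fold change of 0.11, against -0.00 over all genes tested. Lif, an IL-6 family cytokine, had the smallest unadjusted p (24.8 ± 6.30 CPM in WT and 36.4 ± 6.26 CPM in C3-/- tumors, SD, n = 4 each), followed by Cebpd, at 46.0 ± 5.83 and 61.3 ± 12.1 CPM, and Hnf4a, a factor of liver and pancreatic epithelium, at 188 ± 22.9 and 233 ± 17.5 CPM. The 3 with the highest mean level were Hnf4a, Cebpb and Socs3, at 43.6, 42.3 and 37.5 RPKM. Il6 itself had 21 to 121 counts. Tnf had 4 to 12 counts in WT and 1 to 5 in C3-/- tumors, and Il22 had 4 counts in WT replicate 3 and 0 in the other tumors, and neither passed the filter.

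The proteins that bind these acute-phase products were measured by 16 genes, all of them tested. None was called, 6 were higher and 10 lower in C3-/- tumors, and the median log2 fold change was -0.12. Hemoglobin, which Hp binds, had the highest levels (Hbb-bs 380 RPKM, Hba-a1 314.5 RPKM), at 905 to 12854 counts per gene and tumor, followed by Cd14 (76.6 RPKM). Slc22a17, a receptor of Lcn2, Cd36, a scavenger receptor that fat cells also make, and Tlr2 had the smallest unadjusted p, and Cd36 had its highest count, 1314, in WT replicate 2.

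Of the 30 hepatocyte genes 12 passed the filter, and 0 were called, with 9 lower and 3 higher in C3-/- tumors and a median log2 fold change of -0.48. Ahsg, the plasma protein fetuin-A, had the smallest unadjusted p, at 2.56 ± 3.18 CPM in WT and 0.263 ± 0.138 CPM in C3-/- tumors (SD, n = 4 each), and 172 of its counts were in WT replicate 4 against 2 to 14 in each of the other tumors. Kng1, kininogen, followed with 95 counts in that tumor and 0 to 15 in the others, and Tdo2, which degrades tryptophan, had 3 to 51 counts over the 8 tumors. Of the other acute-phase genes 13 passed the filter, 0 were called, 9 were lower and 4 higher in C3-/- tumors, and the median log2 fold change was -0.71. Mt2, Mt1 and Hpx had the smallest unadjusted p, with log2 fold changes of -0.70 (SE 0.27), -0.77 (SE 0.33) and -1.67 (SE 0.73).

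The genes closest in pattern to Alb and Fgb among those that passed the filter were not known liver products. Sox21 (r = 0.95), Aph1b (r = 0.94), Nat8l (r = 0.94), Wls (r = 0.92) and Galnt6 (r = 0.92) led the list, followed by Gm807, Fbxw10, Nupl2, Pqlc3 and Golga5. Wls, which carries Wnt proteins to the cell surface, had 3048 to 6888 counts, a far smaller range than that of Alb, at 1 to 840.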

How the data were processed

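RNA-seq was performed on 8 KPC tumors, and the authors deposited 1 table with raw counts per gene and tumor, gene lengths, size-factor-normalized counts, FPKM values, and the fold changes and p-values of their own test. Only the deposited counts and gene lengths were used. The paper's methods name STAR and HTSeq with mm39, whereas the submitters' processing notes name HISAT2 2.0.5. DESeq2 1.20.0 is named for the authors' test. The strand setting is not given in the sources used here.

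Counts were compared with edgeR 4.0.16 in R 4.3.3 (TMM normalization after filterByExpr at a minimum count of 10, then glmQLFit and glmQLFTest, Benjamini-Hochberg adjustment and a threshold of 0.05), with WT and C3-/- as the groups and no covariate. In counts simulated from these tumors, with 200 of 16610 genes changed, 34.5% were recovered at a log2 fold change of 1 and 81% at 2. For Saa1, Saa2, Orm1 and Tat, which did not pass the filter, fold changes came from the fit without it. Alternatives were DESeq2 1.42.0, limma-voom (limma 3.58.1), other size factors, other filters, a robust fit, a block for the replicate number, and each tumor left out. CPM used TMM-scaled library sizes, log2 CPM added a prior count of 2, and RPKM used the deposited gene length, a union of annotated exons that understates the level of genes with retained introns. No 2 tumors of a genotype matched within sampling noise (the lowest chi-square per gene over 12 pairs was 15.5). Counts are not independent molecules, so a limit from a count of 0 covers counting error only. The labels call the tumors biological replicates.

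The 10 genes and all gene lists were chosen with earlier results of these data known. Named genes were the 10 transcripts, C3, the 3 genes of each list of at least 10 with the highest mean RPKM and the 3 with the smallest unadjusted p, the 10 genes most like Alb and Fgb, and the 5 most like each of Saa3, Hp, Lbp, Lcn2 and Orm1, of which 1 is not reported here. Other genes of the lists were named after their values were seen. Likeness was the Pearson r of log2 CPM over the 8 tumors. Sequences were read from RefSeq (GRCm38.p6) and GENCODE vM39.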

Additional observations from a re-analysis of the deposited data

Results flagged for a closer look

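Saa1 in C3-/- replicate 1, at -0.78 log2 CPM and 10 counts, stood apart from the other C3-/- tumors, which lay between -2.16 and -2.05 log2 CPM with 2 counts each. It was the 1 of 19 groups of 4 tumors in which the highest or lowest tumor was that far from the rest, where chance gives 0.95. The same tumor had 1429 CPM of acinar transcripts, against 3.28 to 10.9 CPM in the other C3-/- tumors, and 223 CPM of adipocyte transcripts, against 50.4 to 70.6 CPM. Their part in the Saa1 level was not tested.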

How the results depend on the processing

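Outside WT replicate 4, counts of 0 to 29 per tumor limit the statements on Saa1, Saa2, Orm1, Fgb and Tat, while Hp, Saa3, Lcn2 and Lbp had at least 267 counts in every tumor. The number of genes that differed between genotypes was 16 with DESeq2 in place of edgeR (0), and 0 to 4 with each tumor left out, the 4 without C3-/- replicate 1. DESeq2 called 3 of the 10 transcripts, and after a tumor was left out, an alternative chosen after seeing the data, it called 0 to 3 of them and 9, 26, 10 and 1 genes without WT replicates 1 to 4 and 111, 28, 2 and 1 genes without C3-/- replicates 1 to 4. Of the hepatocyte, acute-phase, inducer and receptor lists, these DESeq2 fits called 1 gene (Ahsg) without WT replicate 1, 5 (Ahsg, Apcs, Fga, Fgg and Serpina1b) without WT replicate 2, 1 (Mt1) without C3-/- replicate 1 and 0 in the other 5. All other alternatives gave 0 genes, and the planned ones called none of these lists. With the replicate number as a block (replicate block), 0 genes were called among those that passed the filter, and in the fit without a filter Saa2, at a log2 fold change of -3.64, passed (adjusted p = 0.0448 by edgeR's quasi-likelihood test). It changed no other call. Same-numbered tumors deviated together in 2 of 4 pairs (r of -0.03, 0.49, -0.36 and 0.59), and whether the numbers mark a batch was not tested. Of 140 fold changes of the 10 transcripts under the alternatives, 136 kept their direction, and the other 4 were all of Lbp, which ranged from -0.24 to 0.052 with a tumor left out. The number of transcripts following Alb and Fgb, 1 in all, was 0 by Spearman's rho, at a threshold of 0.9 and with a prior count of 0.5, 3 at a threshold of 0.7, and 0 to 4 with each tumor left out, 0 without WT replicate 4 and 4 without C3-/- replicate 2.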
